A study of Gallus gallus with 48 samples.

Results

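Gene expression in the liver of male chickens of the Beijing-You breed was compared between 10 and 8 weeks of age. The measurement was an oligonucleotide array for 20 genes, chiefly of lipid handling, growth and leptin signalling. The comparison takes the samples whose titles name liver at these ages, 12 at 10 weeks and 12 at 8 weeks, which are 24 of the 48 samples of the series. Both ages had 6 Cy3-labelled and 6 Cy5-labelled samples. A sub-array received 1 sample only, so its other channel carried no label. The labels name no treatment and no genetic change at either age, and they do not say how the birds were fed or whether a sample came from 1 bird. The submitters' notes list the samples as biological replicates, except that samples 5 and 8 of 8 weeks are technical replicates. That pair was averaged, which left 12 units at 10 weeks and 11 at 8 weeks.

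In birds the liver, more than adipose tissue, makes the body's fatty acids. Carbon from glycolysis is built into fatty acids, which leave the liver in lipoproteins that carry apolipoprotein B, or are bound by fatty acid binding proteins and burned in mitochondria. Growth hormone from the pituitary acts on its receptor in the liver, which then releases IGF-1 into the blood. The comparison asks which of these steps differed in expression between the ages.

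A level below is a log2 intensity after background correction, averaged over both spots of a probe, minus the sample's median over the 20 genes. A gene counted as above background in a sample when its foreground exceeded the local background by more than 2 background SDs on average over its spots. Levels of different probes cannot be set against each other, so each gene is compared only with itself. Signals were weak at both ages. The number of genes above background per sample ran from 2 through a median of 7.5 to 14 at 10 weeks, and from 0 through a median of 4.5 to 12 at 8 weeks. The median that levels are set against was thus at background in most samples, and the number of arrays limits the precision of every value.

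Defining liver genes were not detected in every sample. At least 1 of the 3 hepatocyte markers on the panel (L-FABP, Apo-B and IGF-1) was above background in 8 of 12 samples at 10 weeks and in 5 of 12 at 8 weeks, and their summed level ran from -2.25 to 4.91 at 10 weeks and from -1.11 to 2.47 at 8 weeks. H-FABP, a fatty acid binding protein best known from heart and muscle, was above background at 10 weeks in 7 of 12 samples and at 8 weeks in 5. Of the adipocyte markers, LPL was above background in 4 and 3 samples of these ages, and the mouse leptin probe OB(Mus) in 1 and 0. The panel held no albumin, transthyretin or globin probe among its named genes.

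Across the panel limma called 0 of 20 genes (0%) at an adjusted p of 0.05 for 10 against 8 weeks, with age and dye as terms and Benjamini-Hochberg adjustment over the 20 genes. An unadjusted p under 0.05 was found for 1 gene (5%), Spot14b. A permutation test within dyes, with sample 5 alone for the technical pair, also called 0 genes, with 1 unadjusted p under 0.05, or 0 with sample 8 in its place. The mean level was higher at 10 weeks for 10 genes and lower for 10, a split that was 14 and 6 without centring, 12 and 8 with quantile normalization, 13 and 7 without background correction and 8 and 12 with centring on beta-actin and Gapdh. Levels are centred on the median of these same genes, so a near-even split and a small median difference over the panel are largely built in. The ranges of the ages overlapped for all 20 genes. The standard error of a difference had a median of 0.35 over genes and ran from 0.24 to 0.57, so the 95% intervals reached between 0.50 and 1.16 to either side of the estimate. Those widths do not show that a gene was alike at both ages. In whole liver, fewer cells of a type and less RNA per cell cannot be told apart in any of these values.

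**Figure D1:**
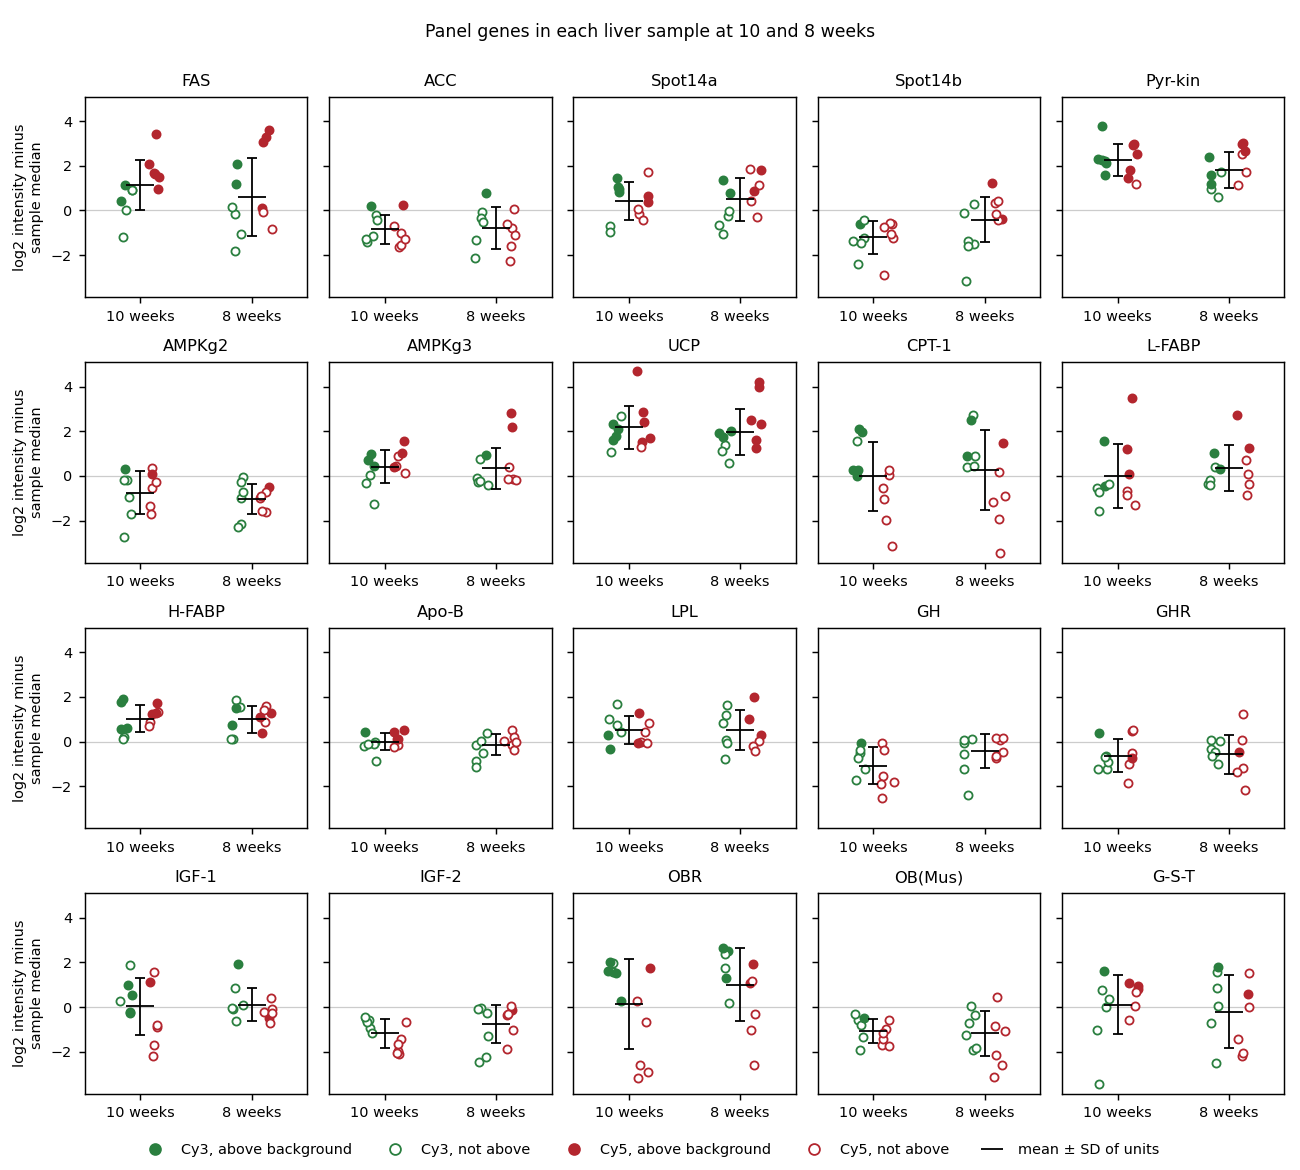
Level of each panel gene in each liver sample (log2 intensity minus the sample's median over the 20 genes), at 10 weeks on the left and 8 weeks on the right of each panel; green marks Cy3, red Cy5, filled points are above background, and bars give the mean ± SD over 12 and 11 units. Points of both ages overlap for every gene. Open points, which are not above background, make up most of every panel but those of UCP, Pyr-kin, FAS and H-FABP, and nearly all of those of GH, IGF-2 and OB(Mus).

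The 5 genes of fatty acid synthesis had mean levels that were higher at 10 weeks for 2 and lower for 3, and 0 passed the test. Their median difference was -0.07, against -0.02 over all 20 genes. FAS and Pyr-kin were the higher ones, while Spot14b, Spot14a and ACC were the lower ones. Without centring, Spot14a and ACC had the opposite sign.

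FAS, read here as fatty acid synthase, the enzyme that builds palmitate, had levels from -1.18 through a median of 1.07 to 3.42 at 10 weeks and from -1.82 through 0.13 to 3.28 at 8 weeks. Its background-subtracted intensity ran from 369.5 through 2525 to 15566.5 at 10 weeks and from -51 through 1100.5 to 18258 at 8 weeks. The highest samples of both ages were alike, and 10 of 12 samples at 10 weeks lay above the 8-week median. It averaged 1.13 ± 1.13 at 10 weeks and 0.62 ± 1.75 at 8 weeks (SD, n = 12 and 11), a difference of 0.51 ± 0.49 (SE, 95% interval -0.49 to 1.51, limma p = 0.307, adjusted p = 0.963). The difference was -0.19 with the scan as a fixed block.

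Pyr-kin is pyruvate kinase, the last enzyme of glycolysis, which supplies pyruvate for fatty acid synthesis. Its level ran from 1.20 through 2.24 to 3.78 at 10 weeks and from 0.60 through 1.72 to 3.01 at 8 weeks. The background-subtracted intensity was between 1944.5 and 24725 with a median of 5273 at 10 weeks, and between 690.5 and 19778 with a median of 3795 at 8 weeks. The ranges overlapped, with 9 of 12 samples at 10 weeks above the 8-week median. The means were 2.27 ± 0.72 at 10 weeks and 1.81 ± 0.81 at 8 weeks (SD, n = 12 and 11), and the difference was 0.46 ± 0.33 (SE, 95% interval -0.22 to 1.14, limma p = 0.176, adjusted p = 0.780). Without the label this probe was above background in 3 samples of each age, and with plain background subtraction the difference was -0.22.

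Spot14a and Spot14b, read here as the paralogs of the thyroid hormone responsive protein Spot 14 that the chicken carries, encode nuclear proteins that promote lipogenic gene expression. Spot14a had levels from -0.98 through 0.52 to 1.73 at 10 weeks and from -1.06 through 0.55 to 1.88 at 8 weeks, which are nearly the same ranges, and a difference of -0.09 ± 0.38 (SE, adjusted p = 0.963 in limma). Spot14b had levels from -2.90 through -1.13 to -0.42 at 10 weeks and from -1.80 through -0.14 to 1.23 at 8 weeks. The ranges overlapped, but 0 of the 12 samples at 10 weeks lay above the 8-week median. It averaged -1.21 ± 0.76 at 10 weeks and -0.42 ± 1.00 at 8 weeks (SD, n = 12 and 11), a difference of -0.79 ± 0.36 (SE, 95% interval -1.53 to -0.06, limma p = 0.0349, adjusted p = 0.697). The within-dye permutation test, with sample 5 alone for the technical pair and so a difference of -0.89, gave p = 0.0113 and an adjusted p of 0.226. With sample 8 alone in its place the difference was -0.70 and the permutation p 0.0952 (adjusted p = 0.952).

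These Spot14b levels were mostly background. The gene was above background at 10 weeks in 1 of 12 samples and at 8 weeks in 2. Its background-subtracted intensity, without centring, ran from -88 through 454.5 to 1867 at 10 weeks and from -246 through 233 to 2914.5 at 8 weeks. The median intensity was thus higher at 10 weeks while the median level, relative to the other genes, was lower. The level also differs from the intensity in its background correction, its log2 scale and the averaged pair. When only the centring was left out, the fitted difference was still -0.54. Sample 8 of 8 weeks, at -3.16, was the lowest single Spot14b value of either age and was averaged with sample 5 at -0.44. With both kept as separate samples the difference was -0.68, and without background correction it was -0.11.

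ACC, read here as acetyl-CoA carboxylase, which makes the malonyl-CoA that FAS extends, was above background at 10 weeks in 2 of 12 samples and at 8 weeks in 1. Its means were -0.85 ± 0.66 (SD, n = 12) and -0.78 ± 0.94 (SD, n = 11) at these ages, and its difference of -0.07 ± 0.34 (SE) had an adjusted p of 0.963 in limma.

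The panel held gamma subunits of AMP-activated protein kinase, the kinase that slows fatty acid synthesis when cellular energy is low. Both differences were positive and neither passed, but that of AMPKg3 changed sign in 6 of its 21 alternatives. AMPKg3 had levels from -1.28 through 0.44 to 1.57 at 10 weeks and from -0.39 through -0.13 to 2.20 at 8 weeks. While 10 of 12 samples at 10 weeks lay above the 8-week median, the highest samples were at 8 weeks, and the difference of means was 0.08 ± 0.34 (SE, adjusted p = 0.963 in limma). It was above background at 10 weeks in 6 of 12 samples and at 8 weeks in 3. AMPKg2 was above background in 2 samples and 1 sample at these ages, with a difference of 0.28 ± 0.36 (SE, adjusted p = 0.963 in limma).

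Of the mitochondrial genes, UCP is the uncoupling protein, which lets protons back across the inner membrane, and CPT-1 is carnitine palmitoyltransferase 1, which commits long-chain fatty acids to oxidation. UCP was above background in 9 samples at each age, with levels from 1.09 through 1.94 to 4.70 at 10 weeks and from 0.59 through 1.73 to 4.23 at 8 weeks. The ages overlapped almost completely, and the difference was 0.21 ± 0.38 (SE, 95% interval -0.57 to 0.99, adjusted p = 0.963 in limma), or -0.46 with plain background subtraction. CPT-1 had levels from -3.16 through 0.14 to 2.09 at 10 weeks and from -3.48 through 0.45 to 2.74 at 8 weeks, and a difference of -0.28 ± 0.48 (SE, adjusted p = 0.963 in limma). Its lowest values at both ages came from Cy5 samples. CPT-1 was above background at 10 weeks in 5 of 12 samples and at 8 weeks in 3 with the label, and in 6 and 5 without it, so its level cannot be taken as sample RNA alone.

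L-FABP, the fatty acid binding protein of hepatocytes, had levels from -1.57 through -0.49 to 3.50 at 10 weeks and from -0.86 through 0.08 to 2.75 at 8 weeks. It was above background in 5 and 4 samples of these ages, and 3 of 12 samples at 10 weeks lay above the 8-week median, among them the highest sample of either age. The difference was -0.35 ± 0.48 (SE, 95% interval -1.33 to 0.63, adjusted p = 0.963 in limma), and 0.0028 without background correction. H-FABP had levels from 0.13 through 1.06 to 1.89 at 10 weeks and from 0.10 through 1.08 to 1.86 at 8 weeks. These ranges were almost identical, and the difference was 0.03 ± 0.29 (SE, 95% interval -0.56 to 0.62, adjusted p = 0.963 in limma), or -0.03 with centring on beta-actin and Gapdh. Without the label H-FABP was above background in 2 samples of each age.

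Apo-B is the structural protein of the lipoproteins that export triglyceride from the liver. It was above background at 10 weeks in 4 of 12 samples and at 8 weeks in 0, and Fisher's exact test gave p = 0.0932 and an adjusted p of 0.932. Its level averaged -0.01 ± 0.38 at 10 weeks and -0.15 ± 0.47 at 8 weeks (SD, n = 12 and 11), with an adjusted p of 0.963 in limma. A gene that is not above background in any sample of an age has only a bound there, and for Apo-B, GH, IGF-2 and OB(Mus) the bound was under 1-fold, so no fold is given for them, and their differences, drawn in the plot or listed among the alternatives, are of background-level values. LPL, lipoprotein lipase, which releases fatty acids from circulating lipoproteins, had levels from -0.33 through 0.43 to 1.68 at 10 weeks and from -0.79 through 0.27 to 2.02 at 8 weeks. Its ranges overlapped throughout, and its difference was 0.02 ± 0.33 (SE, adjusted p = 0.963 in limma), or -0.04 with centring on beta-actin and Gapdh.

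The 4 genes of the growth hormone axis all had lower mean levels at 10 weeks, with 0 past the test, but without centring GHR and IGF-1 were higher, as was IGF-1 without background correction and with quantile normalization. Their median difference was -0.26, against -0.02 over the panel, and it rests partly on GH and IGF-2, which were almost never above background. GHR, the growth hormone receptor, was above background at 10 weeks in 3 of 12 samples and at 8 weeks in 1, with a difference of -0.05 ± 0.35 (SE, adjusted p = 0.963 in limma). IGF-1, the growth factor the liver secretes, was above background in 5 and 2 samples of these ages. Its levels ran from -2.21 through 0.03 to 1.87 at 10 weeks and from -0.73 through -0.08 to 1.93 at 8 weeks, and its difference was -0.08 ± 0.39 (SE, adjusted p = 0.963 in limma). The lowest samples were at 10 weeks, but the medians were close.

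GH, growth hormone itself, is made in the pituitary. It was above background at 10 weeks in 1 of 12 samples and at 8 weeks in 0, and in 1 sample of each age without the label. Its levels ran from -2.52 through -0.99 to -0.08 at 10 weeks and from -2.40 through -0.08 to 0.17 at 8 weeks, and 0 of 12 samples at 10 weeks lay above the 8-week median (limma p = 0.0702, adjusted p = 0.702). IGF-2, a growth factor related to IGF-1, had levels from -2.11 through -1.03 to -0.46 at 10 weeks and from -2.22 through -0.33 to 0.02 at 8 weeks. Here too 0 of 12 samples at 10 weeks lay above the 8-week median (limma p = 0.195, adjusted p = 0.780), and IGF-2 was above background at 10 weeks in 0 of 12 samples and at 8 weeks in 1. Both sets of values are of background-level spots.

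OBR, the leptin receptor, had levels that ran from -3.17 through 0.88 to 2.03 at 10 weeks and from -2.59 through 1.30 to 2.63 at 8 weeks. The low values of both ages came from Cy5 samples, and 6 of 12 samples at 10 weeks lay above the 8-week median. The means were 0.13 ± 2.00 at 10 weeks and 1.00 ± 1.63 at 8 weeks (SD, n = 12 and 11), a difference of -0.87 ± 0.53 (SE, 95% interval -1.95 to 0.21, limma p = 0.110, adjusted p = 0.733). It was -0.14 without background correction and -0.21 on the values of the authors' deposited table. OBR was above background in 5 samples of each age with the label and in 6 of each without it, so this level too cannot be taken as sample RNA alone. OB(Mus), by its name a mouse leptin probe, was above background at 10 weeks in 1 of 12 samples and at 8 weeks in 0, with means of -1.09 ± 0.54 (SD, n = 12) and -1.17 ± 1.02 (SD, n = 11).

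G-S-T, read here as glutathione S-transferase, which conjugates glutathione to toxic compounds, had levels from -3.43 through 0.52 to 1.63 at 10 weeks and from -2.51 through 0.06 to 1.79 at 8 weeks. The ranges overlapped, the difference was 0.31 ± 0.57 (SE, 95% interval -0.85 to 1.47, adjusted p = 0.963 in limma), and the standard error was the largest of the 20. It was above background at 10 weeks in 4 of 12 samples and at 8 weeks in 2, and without the label in 2 and 0.

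**Figure D2:**
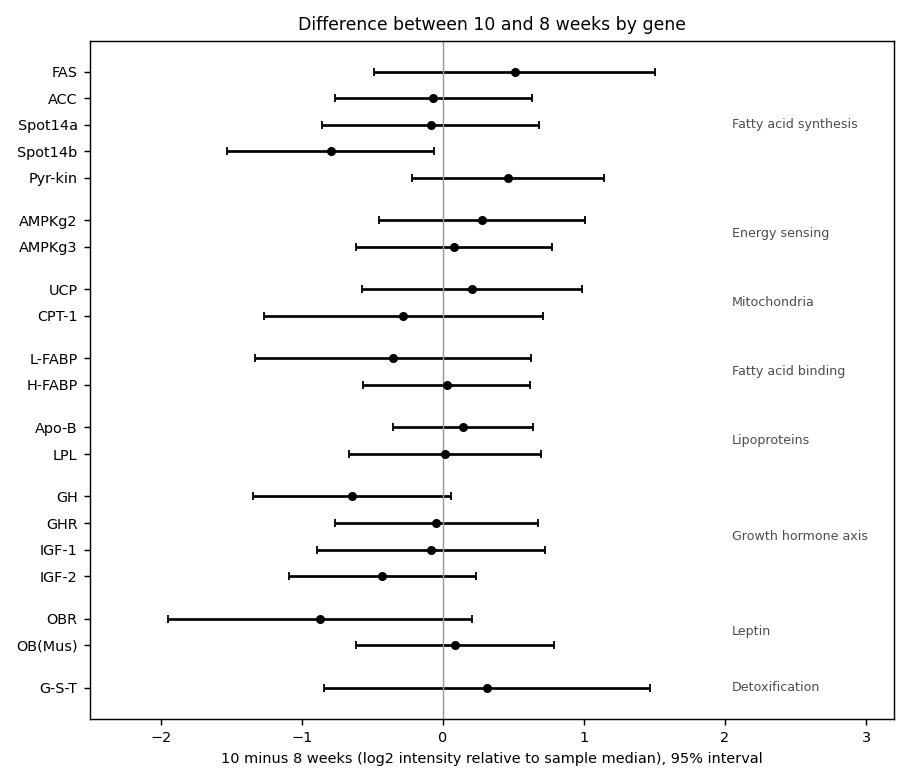
Difference between 10 and 8 weeks for each gene (log2 intensity relative to the sample median, 10 minus 8 weeks) with its 95% interval from limma, ordered by role. The interval of Spot14b, from -1.53 to -0.06, is the only one of the 20 that leaves out 0, and its adjusted p in limma was 0.697. Spot14b was above background in 1 of 12 samples at 10 weeks and 2 of 12 at 8 weeks, so its values are mostly of background-level spots. Values of Apo-B, GH, IGF-2 and OB(Mus) are of background-level spots at 1 or both ages.

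Detection was compared next, since it does not depend on the centring. Over the panel 88 of 240 gene values were above background at 10 weeks and 58 of 240 at 8 weeks. More samples were above background at 10 weeks for 16 genes and at 8 weeks for 2, Spot14b and IGF-2, with the same number for UCP and OBR. Beta-actin probes 1 to 5 were above background at 10 weeks in 2, 3, 3, 3 and 5 samples. At 8 weeks they were in 0, 3, 8, 2 and 4. For Gapdh probes 1 to 5 the samples numbered 2, 4, 8, 6 and 4 at 10 weeks. They numbered 2, 3, 6, 8 and 2 at 8 weeks. The control probes thus went both ways, and their counts were not tested between the ages. Fisher's exact test over units passed an adjusted p of 0.05 for 0 of 20 genes (0%), with an unadjusted p under 0.05 for 1 (5%). This was Pyr-kin, above background in 11 of 12 units at 10 weeks and in 5 of 11 at 8 weeks (91.7% and 45.5%, Fisher's exact p = 0.0272, adjusted p = 0.544). AMPKg3 followed Apo-B, with 6 of 12 and 2 of 11 units and an exact p of 0.193. These counts depend on the background SD around a spot as well as on its signal. At 8 weeks Pyr-kin did not count at 8642.5 units in sample 2 (1.65 SDs) but did at 690.5 in sample 6 (2.76 SDs). At 10 weeks it counted at 1944.5 units in sample 2 (2.34 SDs) but not at 3092.5 in sample 6 (1.65 SDs).

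Signal measures of whole sub-arrays are given beside these counts, and their part in them was not tested. A sample had 7.33 ± 3.96 genes above background at 10 weeks (SD, n = 12) and 4.82 ± 3.25 at 8 weeks (SD, n = 11), with sample 5 alone for the technical pair (permutation p = 0.116, adjusted p = 0.314 over 4 measures). The median excess over background was 1441 ± 1079 intensity units at 10 weeks and 857 ± 1048 at 8 weeks (permutation p = 0.157, adjusted p = 0.314). The median background was 4343 ± 1779 units at 10 weeks and 5137 ± 1588 at 8 weeks (permutation p = 0.280, adjusted p = 0.373). None of these measures passed. The SD over the 20 genes was 1.38 ± 0.24 at 10 weeks and 1.35 ± 0.33 at 8 weeks (permutation p = 0.644). Without centring, the median difference over the panel was 0.24 in place of -0.02.

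**Figure D3:**
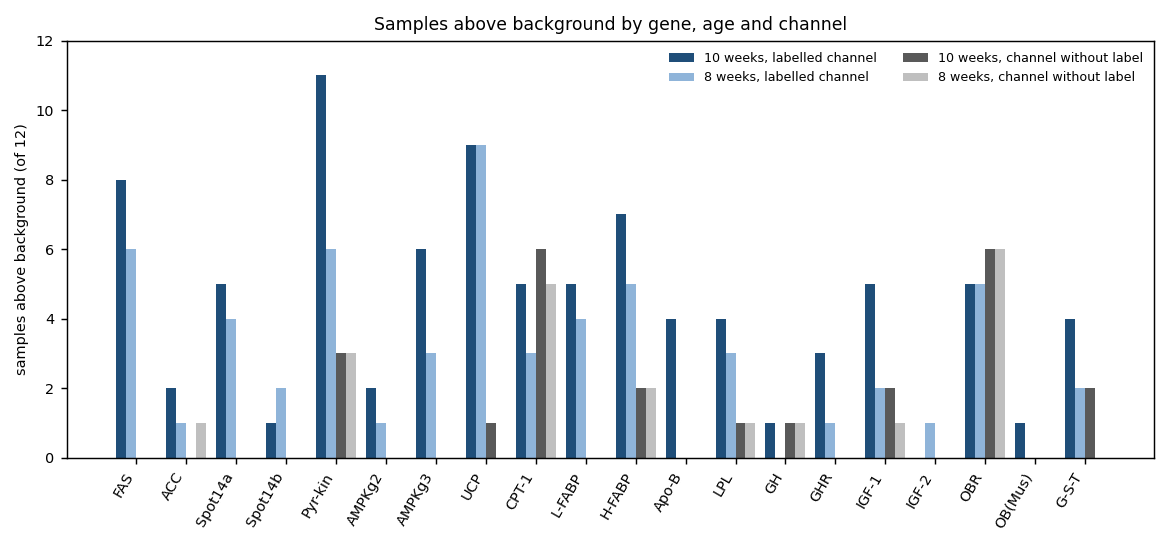
Number of samples, of 12 at each age, in which each panel gene was above background, at 10 weeks (dark) and 8 weeks (light), in the labelled channel (blue) and in the channel of the same sub-arrays without label (grey). Pyr-kin has 11 samples at 10 weeks and 6 at 8 weeks with the label, while OBR and CPT-1 have at least as many samples without the label as with it.

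The channel without label gives the background of the same comparison. There limma called 0 of 20 genes (0%) at an adjusted p of 0.05, with 0 unadjusted p-values under 0.05. The smallest p was that of UCP, with a difference of -0.42 ± 0.23 (SE, limma p = 0.0836, adjusted p = 0.766). Over the panel 24 gene values at 10 weeks and 20 at 8 weeks were above background in this channel, OBR and CPT-1 giving 6 each at 10 weeks and 6 and 5 at 8 weeks. FAS, Spot14a, Spot14b, AMPKg2, AMPKg3, L-FABP, Apo-B, GHR, IGF-2 and OB(Mus) were in 0 samples of either age. Of the 10 beta-actin and Gapdh probes, 0 (0%) passed in limma and 0 had an unadjusted p under 0.05. The smallest p was that of the fifth Gapdh probe, at 0.87 ± 0.70 (SE, adjusted p = 0.975 in limma). None of these probes was above background in more than 8 of 12 samples of an age. Gapdh probe 4 was also above it without the label, in 5 samples at 10 weeks and 4 at 8 weeks. The standard errors ran from 0.39 to 0.70, so these tests do not show that the control genes were alike at both ages.

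The difference between the ages was also taken within each dye. The test of the difference between dyes passed for 0 of 20 genes (0%) in limma, with 1 (5%) at an unadjusted p under 0.05. This was Pyr-kin, whose level at 10 minus 8 weeks was 0.97 ± 0.46 (SE) in Cy3 samples and -0.20 ± 0.45 (SE) in Cy5 samples, with 6 samples of each age. Its means in Cy3 samples were 2.38 at 10 weeks and 1.41 at 8 weeks, and in Cy5 samples 2.15 and 2.35. With sample 5 alone for the technical pair, the Cy5 difference minus the Cy3 difference was -1.37 ± 0.63 (SE, limma p = 0.0373, adjusted p = 0.659). Pyr-kin was above background in all 6 Cy3 samples at 10 weeks and in 3 of 6 at 8 weeks, and in 5 and 3 of the Cy5 samples.

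In Cy5 samples the Spot14b level at 10 minus 8 weeks was -1.36 ± 0.45 (SE, limma p = 0.00955, adjusted p = 0.154), and in Cy3 samples it was 0.0034 ± 0.52 (SE). Its means in Cy5 samples were -1.18 at 10 weeks and 0.18 at 8 weeks, while in Cy3 samples both were -1.24. The 8-week Cy3 mean holds sample 8 at -3.16. Without that sample it was -0.85, and the Cy3 difference was -0.38. With sample 8 left out in this way, the Cy5 difference minus the Cy3 difference was -0.98 ± 0.67 (SE, limma p = 0.156, adjusted p = 0.659), so the dyes were not shown to differ. In the Cy5 samples GH and IGF-2 also had unadjusted limma p-values under 0.05, at 0.0232 and 0.0226, with an adjusted p of 0.154 each, on background-level values. G-S-T had a difference of 1.10 ± 0.62 (SE) in Cy5 samples and -0.45 ± 0.68 (SE) in Cy3 samples. With sample 8 left out the Cy3 difference of G-S-T was -0.63. The Cy5 difference minus that Cy3 difference was 1.74 ± 1.11 (SE, adjusted p = 0.659 in limma).

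**Figure D4:**
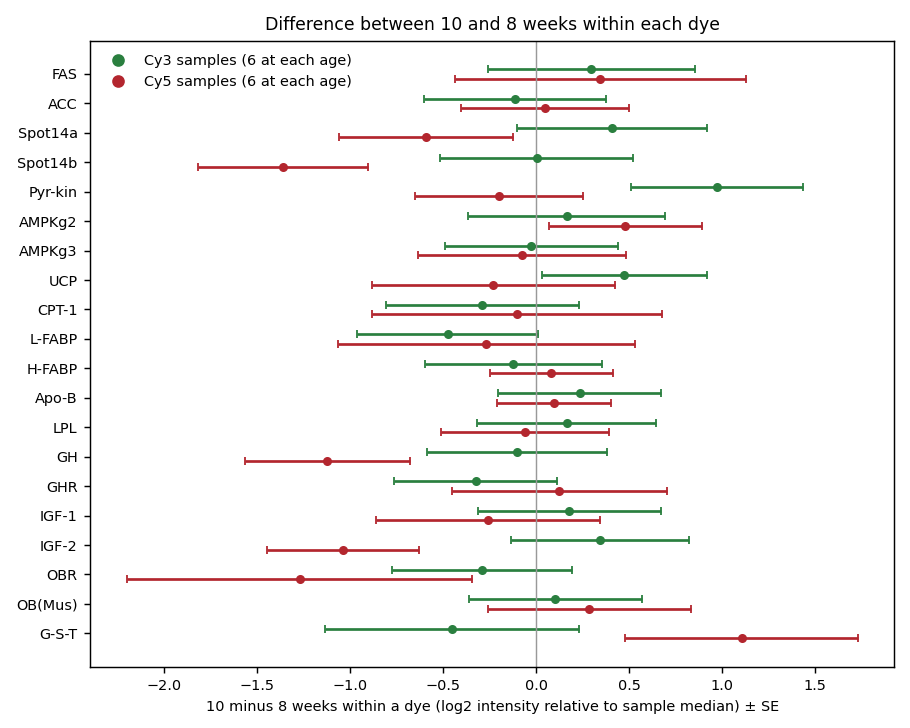
Difference between 10 and 8 weeks for each gene (log2 intensity relative to the sample median, 10 minus 8 weeks) within Cy3 samples (green) and within Cy5 samples (red), 6 samples of each age per dye, with bars for ± SE. Pyr-kin lies at 0.97 with Cy3 and -0.20 with Cy5. Spot14b lies at 0.0034 with Cy3 and -1.36 with Cy5, on mostly background-level values.

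Variation among samples of the same age was compared after the mean of each age and dye was removed, with sample 5 alone for the technical pair. The Brown-Forsythe permutation test passed for 0 of 20 genes (0%), with unadjusted p-values under 0.05 for 2 (10%). FAS had an SD of 0.81 at 10 weeks and 1.59 at 8 weeks, a ratio of 0.511 (permutation p = 0.00975, adjusted p = 0.195). With sample 8 alone for the pair, FAS had SDs of 0.81 at 10 weeks and 1.58 at 8 weeks (permutation p = 0.0197, adjusted p = 0.393). The level of FAS in Cy5 samples lay between 0.98 and 3.42 at 10 weeks and between -0.82 and 3.62 at 8 weeks. At 8 weeks samples 5, 7 and 10 were at 3.62, 3.06 and 3.28, and samples 2, 4 and 12 were at 0.13, -0.06 and -0.82. In samples 4 and 12 FAS was not above background, so the low end of this spread is of background-level values. Samples 5 and 10 shared a scan, and none of the first group shared one with the second. Scan means were not removed here, and the part of the scan in this spread was not tested. OB(Mus) had an SD of 0.51 at 10 weeks and 1.05 at 8 weeks (permutation p = 0.0377, adjusted p = 0.377), on background-level values. With sample 8 alone for the pair OB(Mus) had a permutation p of 0.0757 (adjusted p = 0.505). IGF-2, also of background-level values, then had a permutation p of 0.0483 (adjusted p = 0.483). For IGF-1 the larger SD was at 10 weeks, with 1.16 at 10 weeks and 0.61 at 8 weeks (permutation p = 0.133, adjusted p = 0.585). It was above background in 5 and 2 samples of these ages, so its SDs too are mostly of background-level values.

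**Figure D5:**
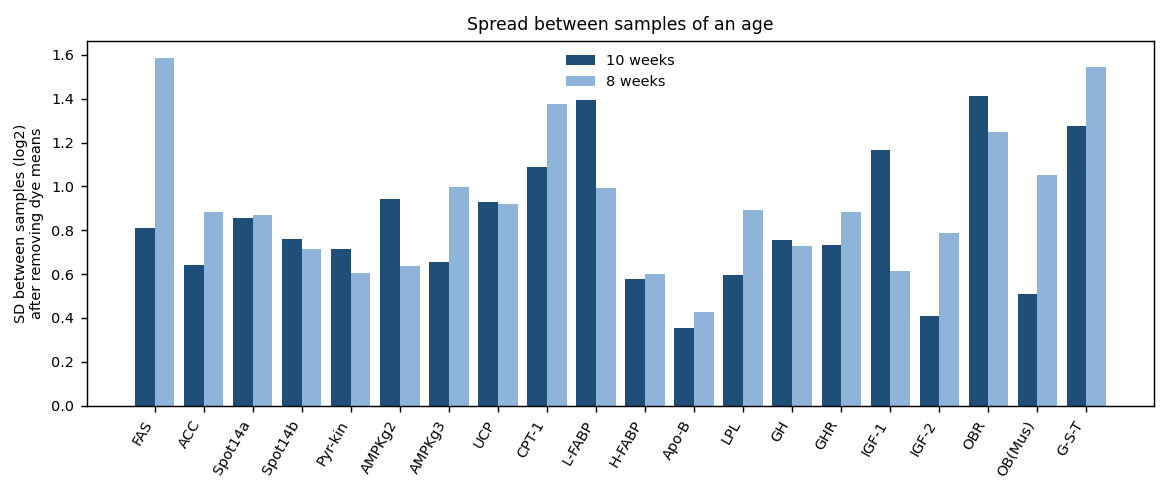
SD between samples of an age for each gene (log2), after removal of the mean of each age and dye, at 10 weeks (dark) and 8 weeks (light), from 12 and 11 samples, with sample 5 alone for the technical pair. FAS has 0.81 at 10 weeks and 1.59 at 8 weeks, and IGF-1 has 1.16 and 0.61.

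The sub-arrays lay on 7 scans, of which 4 held samples of both ages, so the comparison was repeated with the scan as a block and within each such scan. The technical pair lay on different scans, and sample 5 alone stood for it in the fixed-block fit and within scans. With the scan as a fixed block 0 genes passed in limma and 2 had an unadjusted p under 0.05. The difference of Spot14b was then -0.94 (adjusted p = 0.463) and that of OBR -1.29 (adjusted p = 0.463), while that of Pyr-kin was 0.016 (adjusted p = 0.969). Within scans, where no term for dye was fitted, Spot14b was lower at 10 weeks on 3 of 4, with differences from -3.04 to 0.043. OBR was lower on 3 of 4, from -2.20 to 0.69, and Pyr-kin was higher on 2 and lower on 2, from -0.86 to 0.92. L-FABP was lower at 10 weeks on 4 of 4 scans, from -1.12 to -0.40, and so was GH, from -1.08 to -0.27, on background-level values. AMPKg3 was too, from -0.81 to -0.059, although its difference in the main fit was positive. On these scans most L-FABP and AMPKg3 values were background-level ones as well. Each of these genes had at least 1 scan where none of its values passed the background limit. AMPKg2 was higher on 4 of 4, from 0.040 to 1.25, also on mostly background-level values, being above background in 2 samples and 1 sample of these ages. Whether a shared sign on 4 of 4 scans exceeds chance was not tested. All other genes were higher on some scans and lower on others. Some of these scans held only 1 sample at 8 weeks, so those differences rest on that sample. On 1 of these scans all samples at 10 weeks carried Cy3 and the sample at 8 weeks carried Cy5, so age and dye cannot be told apart there.

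In the authors' deposited table of processed values, 174 gene values were present at 10 weeks and 168 at 8 weeks, and the others were coded as missing. On these values, centred in the same way, limma passed 0 of 20 genes, with 1 unadjusted p under 0.05. From that deposited table the difference of Spot14b was -1.13 ± 0.49 (SE, 7 samples present at each age, limma p = 0.0275, adjusted p = 0.550). FAS had a difference of 0.037 and Pyr-kin one of 0.53 in the authors' deposited table, and AMPKg2 was present in 8 samples at 10 weeks and 3 at 8 weeks. GH had a difference of 0.50 ± 0.55 (SE, adjusted p = 0.851 in limma) in the authors' deposited table, the opposite sign to that from the scanner files, with 5 samples present at 10 weeks and 8 at 8 weeks. In that deposited table IGF-2 had a difference of -1.25 ± 0.64 (SE, 4 samples present at each age, limma p = 0.0572, adjusted p = 0.572).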

How the data were processed

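Labelled liver RNA was hybridised alone to sub-arrays of 64 spots, as 2 spots for each of 32 probes. The deposited scanner files give foreground and background intensity in both channels and the percent of saturated pixels, without normalization, per the file headers. The authors' deposited table of processed scores, which look like log2 values and code missing ones as 10000, names the probes. Its making is not stated in the sources at hand. The authors' other table, of background-subtracted intensity, equalled the scanner file's own channel in 24 of 24 samples.

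Scanner files do not name spots. Names rest on a match of values to the authors' table, with Gapdh probes moved to the end (median r 0.989, lowest 0.769 in sample 4 of 10 weeks, 0.9 or more in 21 of 24). Of 31 probes, 30 were matched best by their own spots. No spot had 50 percent of its pixels saturated, but 40 spots in 14 of the 24 samples had some saturated pixels, 11 at 10 weeks and 29 at 8 weeks.

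Background was corrected by normexp with an offset of 50. The log2 intensities of both spots were averaged, and the sample's median over the 20 genes was subtracted. limma 3.58.1 in R 4.3.3 fitted age and dye to 23 units (20 residual degrees of freedom). The technical pair rests on the submitters' note, although its labels name different dyes, and it took 0.5 for the dye term. Fisher's exact and permutation tests (100000 resamples) used scipy 1.17.1 and numpy 2.4.6 (Python 3.11.15), and matplotlib 3.10.9 drew the figures. Tests were two-sided. The main limma fit and the permutation tests were tried on simulated data, and Fisher's exact test on a fixed case with a known p.

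The members and lists were chosen with earlier results of these data known. All 20 genes are named. Lowest, median and highest values are given for those above background in at least 6 of 24 samples and for the 5 with the smallest p. No probe sequences were used here.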

Additional observations from a re-analysis of the deposited data

Results flagged for a closer look

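The corn probe, a plant control that should find no chicken RNA, was above background in 1 sample at 10 weeks and in 0 at 8 weeks, which drew attention because it enters no comparison. The sample was sample 5 of 10 weeks, labelled with Cy3, where the probe lay 2.18 background SDs above background, just past the limit of 2. The same sample had 14 of the 20 panel genes above background, the most of the 24 samples. In the channel without label the corn probe was above background in 0 samples of either age, and the blank was in 0 samples of either age in both channels.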

How the results depend on the processing

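No gene passed an adjusted p of 0.05 at 10 against 8 weeks in any of the 21 alternatives or with any of the 23 units left out, and the lowest adjusted p was 0.154, for Spot14b at -1.02 with the grid position as a random block. The unadjusted p was under 0.05 for between 0 and 3 genes, and in the spread test for 1 without background correction and 5 with plain subtraction. The counts of detection, spread, dye dependence, the channel without label, the control probes and the sample measures also stayed at 0 in every alternative run. The estimated correlation was 0.112 within scans and 0.439 within grid positions. Some alternatives could not change a direction. Leaving out the dye term, fitting all 4 ages or keeping only genes above background in at least 6 samples returned the main differences exactly. The permutation test repeated the differences of sample 5 alone for the technical pair. Of 412 gene values under the alternatives, these included, 365 kept their direction, and 47 had the opposite sign. The cause of these reversals was not tested.

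In Cy3 samples these were AMPKg3 at -0.025, G-S-T at -0.45, H-FABP at -0.12, IGF-1 at 0.18, IGF-2 at 0.34, Spot14a at 0.41 and Spot14b at 0.0034. In Cy5 samples they were ACC at 0.048, AMPKg3 at -0.077, GHR at 0.12, LPL at -0.059, Pyr-kin at -0.20 and UCP at -0.23. On the authors' values they were AMPKg2 at -0.052, G-S-T at -0.19, GH at 0.50, IGF-1 at 0.44 and OB(Mus) at -0.66. Centring on beta-actin and Gapdh gave H-FABP at -0.027 and LPL at -0.039. Without centring ACC was at 0.19, GHR at 0.21, IGF-1 at 0.17 and Spot14a at 0.17, and with quantile normalization ACC was at 0.061 and IGF-1 at 0.011. Without background correction IGF-1 was at 0.0093, L-FABP at 0.0028 and Spot14a at 0.062. Plain subtraction, with values under 50 set to 50, gave ACC at 0.10, GHR at 0.033, H-FABP at -0.48, Pyr-kin at -0.22 and UCP at -0.46. With the scan as a fixed block ACC was at 0.21, AMPKg3 at -0.42, FAS at -0.19, GHR at 0.32, H-FABP at -0.033, IGF-1 at 0.029 and UCP at -0.12. As a random block the scan gave AMPKg3 at -0.048, and the grid position gave GHR at 0.14. With the technical pair not averaged AMPKg3 was at -0.0512 and H-FABP at -0.0201.

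No pairing of the ages by the sample numbers of the titles was seen. Of 11 same-numbered pairs 4 had correlated deviations over 0.1 (median -0.04, from -0.51 to 0.26), and 0 samples at 10 weeks correlated best with their own number. Even the technical pair correlated at only 0.38 in its deviations from each gene's mean, so these values cannot exclude a pairing. With these numbers as a replicate block 0 genes passed in limma and 3 had an unadjusted p under 0.05, Spot14b at -0.92 having an adjusted p of 0.234. AMPKg3 at -0.0503 and H-FABP at -0.023 had the opposite sign under this block.

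Leaving out each unit in turn reversed 43 of 460 gene values. Values ran from -0.23 to 0.077 for ACC, from -0.0091 to 0.24 for AMPKg3, from -0.21 to 0.14 for GHR, from -0.067 to 0.13 for H-FABP and from -0.28 to 0.086 for IGF-1. They ran from -0.13 to 0.18 for LPL, from -0.047 to 0.28 for OB(Mus), from -0.23 to 0.038 for Spot14a and from -0.93 to -0.61 for Spot14b. Of the 20 genes 12 were above background in at least 6 of the 24 samples. Among these 12, UCP at 18, Pyr-kin at 17 and FAS at 14 were above background in most samples, and H-FABP in 12. The rest of the 12, like the other 8 genes, rest mostly on background-level values.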

Other observations

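Profiles of the 24 samples, taken as deviations from each gene's mean, were correlated pair by pair as a description. Pairs of the same age had a median r of -0.09 (132 pairs) and pairs of different ages one of -0.04 (144 pairs). Pairs with the same dye had a median of 0.09 and pairs with different dyes one of -0.24. The 7 pairs that shared a grid position of the sub-array had a median of 0.40, from -0.29 to 0.79, against -0.08 over the 269 other pairs. Among these 7, sample 2 of 10 weeks and sample 6 of 8 weeks, both Cy3, correlated at 0.79, and samples 4 and 12 of 10 weeks, both Cy3, at 0.72. Sample 4 of 8 weeks shared the position of the first pair. It correlated at 0.40 with sample 2 of 10 weeks and at 0.49 with sample 6 of 8 weeks. The remaining pairs, each at a position of its own, correlated at -0.21, -0.04 and -0.29. Pairs share samples, so they are not independent.

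The 2 spots of a probe differed by a median of 0.22 on the log2 scale at 10 weeks and 0.32 at 8 weeks. For genes above background it was 0.18 at 10 weeks and 0.17 at 8 weeks. Samples 5 and 8 of 8 weeks, the technical pair, differed by a median of 0.82 over the 20 genes, while the 35 other 8-week pairs of opposite dye differed by medians from 0.27 to 1.47. The residual SD between samples of an age had a median of 0.84 over genes.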
